A study of Mus musculus with 20 samples.

Results

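The 8 genes described here encode the proteins with which cytotoxic lymphocytes kill other cells: Prf1, Gzma, Gzmb, Srgn, Nkg7, Ctsw, Fasl and Ifng. They were found by symbol in the deposited table of 59311 genes, each in 1 row. The set was chosen by measured values, since Gzma and Prf1 are among the genes with the largest excess in Ly6C lo over Ly6C hi monocyte-derived macrophages (MoMac) of the same liver. That contrast is therefore given as a description without a test, whereas the comparison of Ac-6-FP with vehicle, which the choice did not use, was tested.

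RNA was sequenced from 20 libraries of 10 adult male C57BL/6 mice, all made fibrotic by 4 weeks of carbon tetrachloride (CCl4), with no uninjured mice among them. Mice 16 to 20 received Ac-6-FP, a ligand of the antigen-presenting molecule MR1 that keeps mucosal-associated invariant T (MAIT) cells inactive, and mice 11 to 15 received its vehicle (DMSO in PBS), shortly before the last CCl4 injection and daily thereafter. From each liver, Ly6G-, CD11c- and CD3-negative cells positive for CD11b and F4/80 were sorted into a Ly6C hi and a Ly6C lo subset, which gave 4 groups of 5 libraries: vehicle and Ac-6-FP in each of the Ly6C lo and Ly6C hi subsets. The gate as described in the methods names CD3, a T cell marker, and not NK1.1, the NK cell receptor encoded by Klrb1c.

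Cytotoxic granules are secretory lysosomes of NK cells and CD8 T cells. On contact with a target cell, perforin opens its membrane and granzymes, a family of serine proteases, enter and cleave proteins that commit the cell to apoptosis. Fas ligand kills by a separate route, through the death receptor Fas, and interferon gamma is released as a cytokine that activates macrophages. In the liver, NK cells are abundant and are known to kill activated stellate cells, the main source of scar matrix.

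The starts of the granule effector genes lie on 3 chromosomes of the mm10 (GRCm38) genome. Prf1 lies at chr10:61297836-61304263, Gzma at chr13:113093825-113100983 and Gzmb at chr14:56258838-56262334. The 250 bases before the RefSeq start of each (build GRCm38.p6) are shown because these genes had some of the largest differences between the subsets; Prf1 is on the plus strand (chr10:61297586-61297835), and Gzma (chr13:113100982-113101231) and Gzmb (chr14:56262335-56262584) are on the minus strand. Capitals mark the Runx core TGTGGT, read on either strand, and in Gzmb also the AP-1 site TGANTCA.
Prf1: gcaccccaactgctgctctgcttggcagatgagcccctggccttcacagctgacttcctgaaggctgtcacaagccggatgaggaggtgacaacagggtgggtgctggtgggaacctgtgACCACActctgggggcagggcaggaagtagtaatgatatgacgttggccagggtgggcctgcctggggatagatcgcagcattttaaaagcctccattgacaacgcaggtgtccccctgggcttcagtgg
Gzma: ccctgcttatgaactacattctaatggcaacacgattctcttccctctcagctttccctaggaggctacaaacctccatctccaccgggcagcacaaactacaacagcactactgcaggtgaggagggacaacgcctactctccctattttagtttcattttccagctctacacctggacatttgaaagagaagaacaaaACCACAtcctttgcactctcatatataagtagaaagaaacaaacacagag
Gzmb: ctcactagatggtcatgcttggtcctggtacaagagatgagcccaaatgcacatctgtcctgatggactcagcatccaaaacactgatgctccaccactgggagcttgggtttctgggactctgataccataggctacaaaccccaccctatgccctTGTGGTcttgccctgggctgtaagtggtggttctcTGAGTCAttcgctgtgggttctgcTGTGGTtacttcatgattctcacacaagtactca
The Runx core stood 130 to 125 bases before the start of Prf1, 50 to 45 before that of Gzma, and at 93 to 88 and 34 to 29 before that of Gzmb, whose AP-1 site stood between them at 58 to 52. No marked sites overlap. RefSeq promoters were at hand for 7 of the 8 genes. The Runx core was also found before Nkg7 and before 1 of 2 listed starts of Srgn, but not before Fasl or Ifng, and 14.0% of 32851 promoters of the same length hold it. The T-box core GGTGTG was found before Nkg7 and Fasl (16.3% of promoters), the TATA box TATAAA before Ifng and the other start of Srgn (12.4%), the ETS core CCGGAA before that start of Srgn (12.0%), and the cAMP response element TGACGTCA before none (1.55%). AP-1 sites were in 6.75% of promoters. A match is a run of letters and was not tested for binding.

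Reads on genes, recovered from the deposited values, ran from 5693049 to 18682437 over the 20 libraries. The Ly6C lo vehicle library of mouse 13 stood apart, with 5343 genes detected against 9017 to 15766 in the others, and results that rest on it are also given without it. Values are counts divided by a DESeq2 size factor per library, called normalized counts here, and are not divided by gene length, so that levels are compared between libraries and not between genes. A value of 0 means that 0 reads were counted. Since an expected count of up to 3 reads can still give 0, ratios to 0 were set against a floor of 3 reads. The sort was mirrored in Ly6c2, which encodes the sorted antigen, with 7403 ± 1691 (SD, n = 10) normalized counts in Ly6C hi and 688 ± 198 in Ly6C lo libraries, and both subsets held the macrophage transcript Cd68 (13382 ± 1888 and 13990 ± 1901). As these are sorted pools, fewer cells of a type and less RNA per cell cannot be told apart.

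The killing effector transcripts were found almost exclusively in Ly6C lo libraries, except Srgn, which both subsets expressed. In 6 of the 8 genes, Prf1, Gzma, Gzmb, Srgn, Nkg7 and Ctsw, the lowest Ly6C lo library was above the highest Ly6C hi library. Over all 17248 genes analysed, 0.974% had this pattern, a number that stands beside the 6 genes only as a description, since the contrast chose Gzma and Prf1. Together, the 8 genes made up 0.451 to 0.689% of all normalized counts in Ly6C lo vehicle libraries, 0.470 to 0.812% in Ly6C lo Ac-6-FP libraries and 0.0351 to 0.0668% in Ly6C hi libraries.

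**Figure D1:**
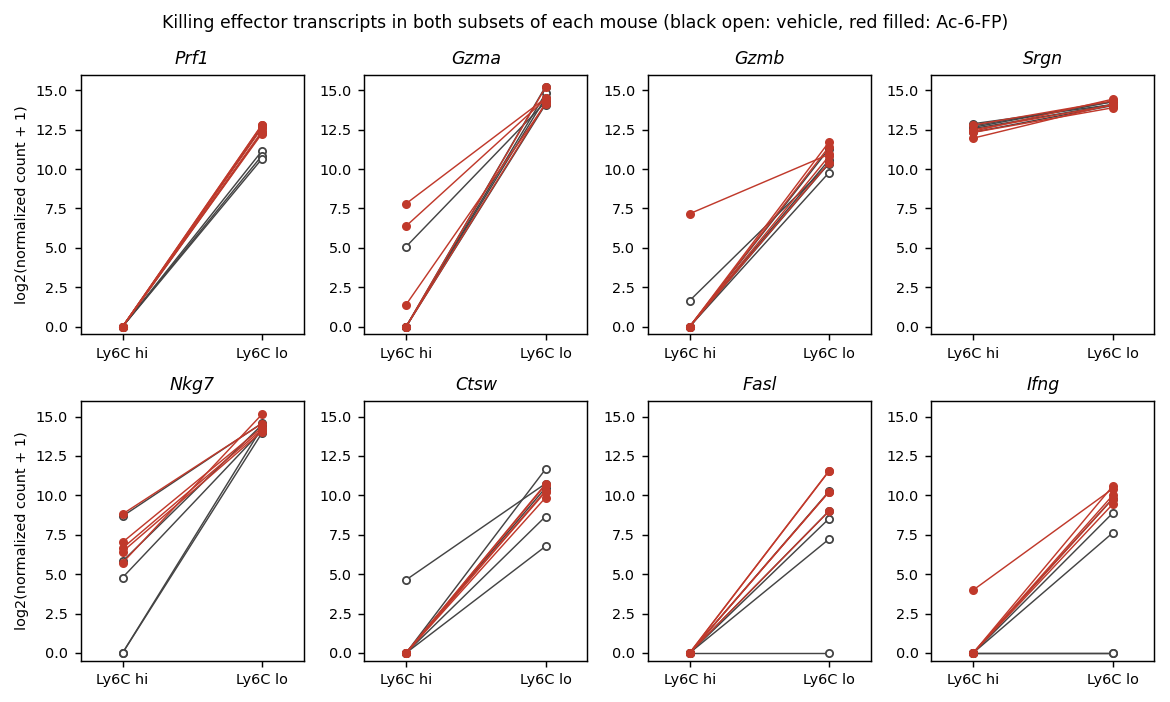
Level of each killing effector transcript, as log2(normalized count + 1) on the vertical axis, in the Ly6C hi and the Ly6C lo library of each of 10 mice. A line joins both libraries of 1 mouse, with open black points for vehicle and filled red points for Ac-6-FP. Prf1 and Fasl are at 0 in all Ly6C hi libraries, and Srgn is the only transcript that every Ly6C hi library holds, at 3989.6 or more.

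Among the granule effectors, Prf1 encodes perforin, the pore-forming protein. In Ly6C lo vehicle libraries of mice 11 to 15 it had 6480.1, 2275, 1851, 1606 and 5087 normalized counts, and in Ly6C lo Ac-6-FP libraries of mice 16 to 20 it had 7244, 4893, 6281, 5382 and 7090.5. All 10 Ly6C hi libraries were at 0. Set against a floor of 3 reads per library, the mean in Ly6C lo was at least 1828-fold higher, and the mean within-mouse difference was 12.05 ± 0.83 (SD, n = 10) on the log2(normalized count + 1) scale.

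Gzma encodes granzyme A, a protease that cleaves after basic residues. Its values in Ly6C lo were 19483, 17527, 38619, 28451 and 23525 in vehicle mice and 37250.3, 17801, 23125, 18623 and 22229 in Ac-6-FP mice. In Ly6C hi, 6 libraries were at 0 and the others held 32.8 (mouse 11), 1.64 (mouse 17), 223 (mouse 18) and 82.7 (mouse 20). Every Ly6C lo library was thus far above every Ly6C hi library, with a ratio of means of 726 (1909 without mouse 18, whose library holds most of the Ly6C hi total) and a within-mouse difference of 12.47 ± 3.23 on the log2 scale.

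Gzmb encodes granzyme B, which cleaves after aspartate and activates caspases. It reached 2502, 1272, 1313, 877.5 and 1530.3 in Ly6C lo vehicle libraries and 3374, 1818, 1960.45, 1350.04 and 2741 in Ly6C lo Ac-6-FP libraries. Of the Ly6C hi libraries, 8 were at 0, that of mouse 12 held 2.14 and that of mouse 18 held 143, the same library that was highest for Gzma. The groups did not overlap, with a within-mouse log2 difference of 9.88 ± 2.32. Nearly all Gzmb of the Ly6C hi subset was in the library of mouse 18, without which its mean was 0.238 normalized counts, against 1864 in Ly6C lo.

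Srgn, at chr10:62493834-62527445, encodes serglycin, the proteoglycan that binds granzymes and perforin within granules and is also made by myeloid cells. It had 19826, 19772, 16721, 17366 and 17555 normalized counts in Ly6C lo vehicle libraries and 15164, 17743, 20551, 17098 and 22133 in Ly6C lo Ac-6-FP libraries. In Ly6C hi it had 6436, 6839, 5174, 6076 and 7519.7 with vehicle and 5128, 3989.6, 7097, 5789 and 5384 with Ac-6-FP. Srgn was therefore well expressed in both subsets, 3.09-fold higher in Ly6C lo, with a within-mouse log2 difference of 1.64 ± 0.27 and the same direction in 10 of 10 mice. By size of the log2 difference it ranked 1862 of 17248 genes, and the other 7 genes were within the first 76. Their order depends on the pseudocount and on the test, as Gzma exceeded Prf1 with a pseudocount of 1 but not with one of 0.1 (14.53 and 15.37 on the log2 scale) or by edgeR (12.33 and 15.30).

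Nkg7 (chr7:43437073-43438248) encodes a granule membrane protein that takes part in exocytosis of cytotoxic granules. Its Ly6C lo values were 17790.4, 15923, 20146, 24455 and 22795 with vehicle and 36198, 16999, 24136, 18597 and 20157 with Ac-6-FP. In Ly6C hi it was at 26.6, 0, 0, 409 and 55.4 in vehicle mice and 51.8, 85.1, 449, 99.7 and 129.7 in Ac-6-FP mice. Of the transcripts other than Srgn it was the one most often detected in Ly6C hi, in 8 of 10 libraries, yet the ratio of means was 166 and the subsets did not overlap.

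Ctsw (chr19:5465043-5468507) encodes cathepsin W, a cysteine protease of NK and CD8 T cells. It had 1715, 403, 3239, 108 and 1427 normalized counts in Ly6C lo vehicle libraries and 1626, 1254, 923, 1197 and 1687 in Ly6C lo Ac-6-FP libraries. In Ly6C hi it was detected only in mouse 11, at 23.9. The vehicle libraries spread widely, with mouse 13 highest and mouse 14 lowest, while the Ac-6-FP libraries lay inside that range.

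Fasl (chr1:161780689-161788495) encodes Fas ligand. Its Ly6C lo values were 1224, 367, 0, 148 and 515 with vehicle and 3026, 511, 2973, 1199 and 1190.1 with Ac-6-FP, and all 10 Ly6C hi libraries were at 0. It was higher in Ly6C lo in 9 of 10 mice, with a mean at least 423-fold higher, and mouse 13 had none in either subset.

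Ifng (chr10:118441045-118445894) encodes interferon gamma. It had 881, 0, 0, 195 and 466 normalized counts in Ly6C lo vehicle libraries and 1531, 1021, 689.7, 875 and 1363 in Ly6C lo Ac-6-FP libraries. In Ly6C hi it was detected only in mouse 20, at 14.9. It was higher in Ly6C lo in 8 of 10 mice and at 0 in both subsets of mice 12 and 13.

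The transcripts did not vary together in every Ly6C lo library. The library of mouse 16 was the highest of the 10 for Prf1, Gzmb, Nkg7, Fasl and Ifng and the second highest for Gzma. The library of mouse 13 was the highest for Gzma and Ctsw, but Fasl and Ifng were at 0 in it and Prf1 was among the 3 lowest.

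Other genes of the killing pathway were read from lists of their own, against a background of 3.44% of 17248 genes higher in Ly6C lo and 1.76% higher in Ly6C hi (limma on within-mouse differences, adjusted p under 0.05). Of the other granzymes, Gzmd, Gzme, Gzmf, Gzmg and Gzmn were at 0 in all 20 libraries. Gzmc was too low to test, and Gzmk (26.6 ± 40.9 normalized counts in Ly6C lo, SD, n = 10) and Gzmm (36.4 ± 42.9) did not pass the test, so that 0 of 2 tested genes were called by limma or edgeR (1 at an unadjusted p under 0.05 by limma, against 16.7% of all genes). Granzymes A and B were therefore the only granzymes with a mean of 100 or more in Ly6C lo.

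Of the 4 serpins that inhibit granzymes or related proteases, 3 rose in Ly6C lo. Serpinb9, the inhibitor of granzyme B with which cytotoxic cells protect themselves, had 1060.3 ± 317 normalized counts in Ly6C lo and 13.1 ± 22.7 in Ly6C hi (log2 difference 8.37, limma adjusted p = 5.60e-05). Serpinb9b was at 661 ± 285 against 1.64 ± 5.18 (adjusted p = 2.40e-06 by limma), and Serpinb6b at 435 ± 165 against 6.62 ± 10.6 (adjusted p = 0.000144 by limma). Serpinb6a, at 521 ± 365 against 216 ± 213, did not pass (adjusted p = 0.619 by limma). These serpins are close copies of each other, and reads shared between copies can be split between them by the counting.

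Of 12 genes for granule processing and exocytosis, 2 rose and 1 fell in Ly6C lo. Ctsc encodes cathepsin C, the protease that trims granzymes into their active form, and it fell by 1.55 on the log2 scale, from 30477 ± 4850 in Ly6C hi to 10422 ± 1687 in Ly6C lo (limma adjusted p = 2.81e-07). Vamp8, a SNARE protein of secretory granules, rose by 0.72 (12310.0 ± 3662 against 7288 ± 1146, limma adjusted p = 0.000905). Cst7, named after its values were seen, encodes cystatin F, an inhibitor of cathepsin C, and rose by 7.30 (1028 ± 322 against 39.6 ± 54.5, limma adjusted p = 0.000433). The same 3 genes were called without mouse 13 and by edgeR on recovered reads. Ctsh, Stxbp2 and Rab27a did not pass, with log2 differences of -0.12, 0.33 and -1.10.

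On the side of the target cell, 0 of 7 tested genes of the death receptor pathway passed by limma or edgeR, and 3 had an unadjusted p under 0.05 by limma, where 16.7% of all genes did. Fas, the receptor of Fas ligand, had 1170 ± 559 normalized counts in Ly6C lo and 2039 ± 568 in Ly6C hi (limma adjusted p = 0.106), and Fas was called as lower in Ly6C lo when mouse 13 was left out. Casp8, the initiator caspase below Fas, had 1610 ± 514 and 2077 ± 236. Of 6 genes for the interferon gamma receptor and its signalling, Ifngr1 alone rose, by 0.58 (10904 ± 2912 against 7266 ± 1800, limma adjusted p = 0.0296), and was not called by edgeR on recovered reads.

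Markers of NK cells moved with the killing effectors. Of 15 NK cell markers, 14 rose in Ly6C lo and 0 fell, with a median log2 difference of 9.14 against 0.03 over all genes, and the same 14 were called without mouse 13. By edgeR on recovered reads 12 of 15 were called, without Klrc2, Eomes and Tbx21. The fifteenth, Tbx21, a T-box factor of NK and T cells, was detected in 6 Ly6C lo libraries and in no Ly6C hi library (adjusted p = 0.129 by limma). The summed markers ranged from 38165 to 68273 normalized counts in Ly6C lo vehicle, from 41705 to 89659 in Ly6C lo Ac-6-FP, from 112 to 849 in Ly6C hi vehicle and from 26.2 to 581 in Ly6C hi Ac-6-FP libraries, and no marker was at 0 throughout a Ly6C lo group, whereas 9 were at 0 in all Ly6C hi vehicle and 8 in all Ly6C hi Ac-6-FP libraries. Ccl5, a chemokine that T cells also make, held most of this sum (36722 ± 10215 in Ly6C lo). Klrb1c, which encodes NK1.1, was at 7237 ± 2563 in Ly6C lo and 21.6 ± 36.6 in Ly6C hi, and Ncr1, an activating receptor found mainly on NK cells, was at 1802 ± 792 and 4.25 ± 13.4. The part of NK cells in the levels of the killing effectors was not tested.

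Of 8 T cell markers tested, Cd247 and Lat rose, both of which NK cells also use. Cd28, a costimulatory receptor of T cells, was detected in 5 of 10 Ly6C lo libraries, at 416 or less. Cd3g, a chain of the T cell receptor complex, was detected in 5 and reached 226 at most. Cd3d, another chain of that complex, had 0, 2.48, 0, 0 and 0 normalized counts in Ly6C lo vehicle libraries and 100.3, 24.7, 119.5, 8.57 and 72.3 in Ly6C lo Ac-6-FP libraries. All Ac-6-FP libraries were thus above all vehicle libraries for Cd3d, with a log2 difference of 5.18 that did not pass the test (limma adjusted p = 0.207). Cd3e, a further chain of the complex that the CD3 gate recognises, was at 0 in 8 of 10 Ly6C lo libraries and reached 11.1 at most, Cd4 was at 0 in all Ly6C lo libraries, and Cd8a was at 0 in 8 of 10. The summed T cell markers ran from 4.17 to 1642 in Ly6C lo vehicle and from 986 to 2367 in Ly6C lo Ac-6-FP libraries, and reached 196 at most in Ly6C hi. Trac, Trbc1 and Trbc2 were not matched by symbol.

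Mast cell and basophil transcripts, which share the Ly6C lo libraries with the killing effectors, also moved with them, and 6 of 6 tested markers rose (5 by edgeR on recovered reads, without Gata2). Cpa3, a mast cell carboxypeptidase, was at 1448 ± 1735 in Ly6C lo and at 0 in all Ly6C hi libraries. Mcpt8, a basophil protease of the same family of granule serine proteases as the granzymes, was at 1375 ± 2104 and 2.95 ± 9.32. The summed markers were highest in the library of mouse 13 (16473) and ran from 2064 to 5005 in Ly6C lo Ac-6-FP libraries and from 0 to 74.5 in Ly6C hi libraries. Mcpt4 and Tpsb2, found in connective tissue mast cells, were at 0 in all 20 libraries. Eosinophil markers rose in 4 of 5 tested (3 by edgeR on recovered reads, without Il5ra), with the chemokine receptor Ccr3 at 5982 ± 5396 in Ly6C lo and at 0 in Ly6C hi.

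**Figure D2:**
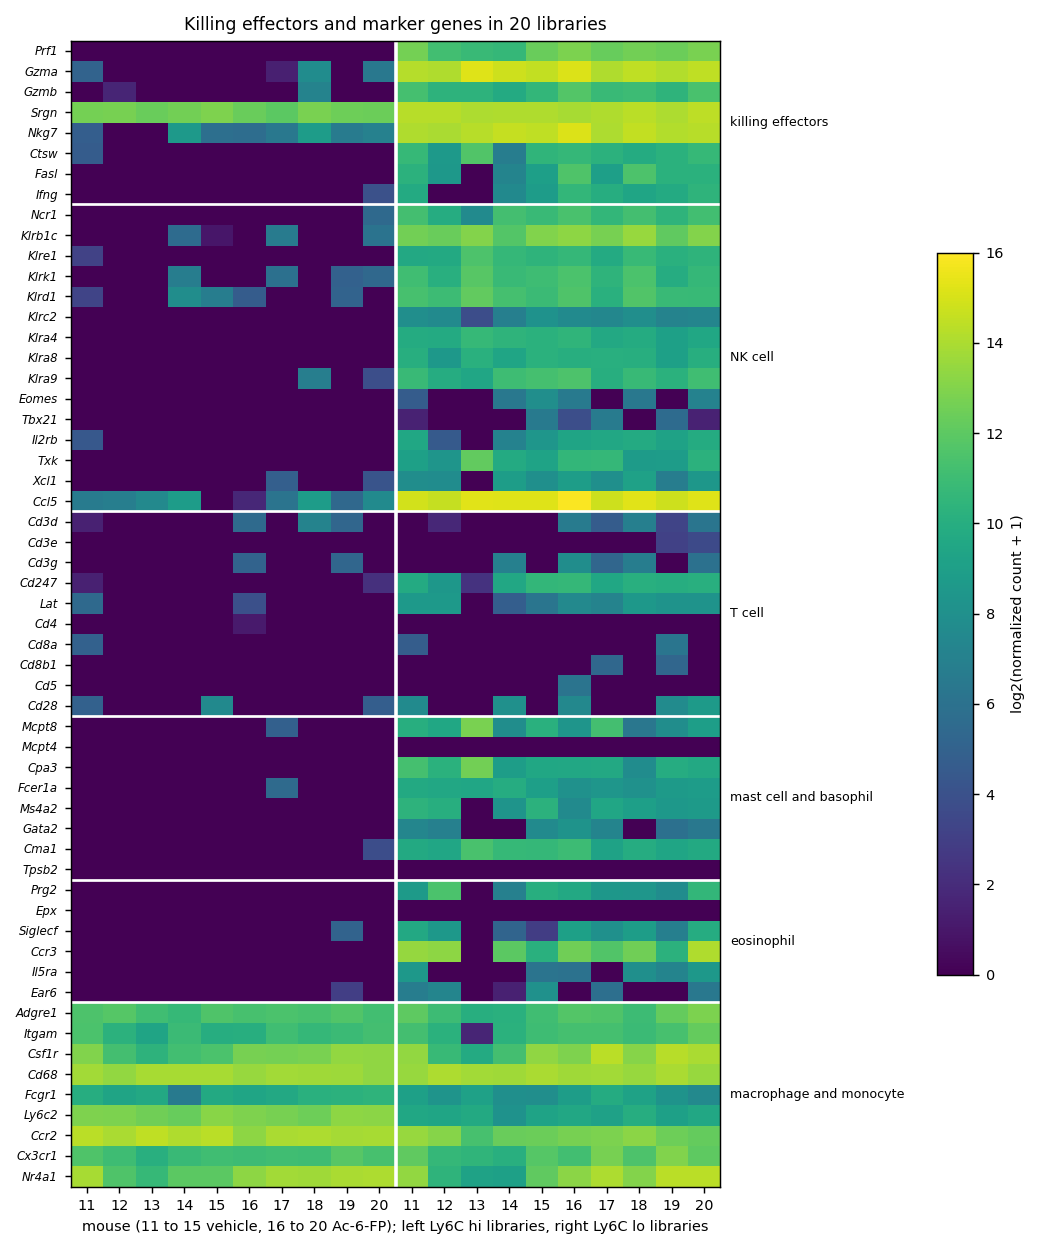
Levels of the killing effectors and of the NK cell, T cell, mast cell and basophil, eosinophil, and macrophage and monocyte markers, as log2(normalized count + 1) in colour, with 1 column for each of 20 libraries. Most NK cell rows are bright in the 10 Ly6C lo columns on the right and dark on the left, like the rows of Prf1 and Gzma. Eomes and Tbx21 are each at 0 in 4 Ly6C lo columns, and Il2rb and Xcl1 each in 1. Cd3e and Cd4 are dark throughout.

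The genes whose pattern over the 20 libraries was most like that of Prf1 were Klra8 (Pearson's r = 0.996 of log2 values), Klrg1 (0.993), Klra7 (0.992), Klra14-ps (0.991) and Klra4 (0.991). For Gzma they were Klra9 (0.981), Cma1 (0.959), Lck (0.958), Klrc1 (0.957) and Serpinb9b (0.955). All of these genes were at or near 0 in most Ly6C hi libraries, so that each r mainly reflects the step between the subsets. The Klra genes other than the pseudogene Klra14-ps encode Ly49 receptors of NK cells. All of the Klra genes are near-identical copies, so that their separate levels are uncertain. Lck encodes a kinase of T and NK cells, Klrg1 and Klrc1 lectin-like receptors of NK and T cells, and Cma1 a mast cell chymase.

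Within the Ly6C lo subset, Gzma varied with the NK cell markers, and Prf1 was not shown to. Over the 10 Ly6C lo libraries, log2 Gzma and the log2 of the summed NK cell markers had Pearson's r = 0.84 (permutation p = 0.00192, adjusted p = 0.00768 over 4 relations) and Spearman's rho = 0.87 (permutation p = 0.00230, adjusted p = 0.00764). As deviations from the means of the 2 treatment groups, r was 0.89. With Ccl5 left out of the sum, a choice made after seeing the data, Gzma had r = 0.73 (permutation p = 0.0116) and rho = 0.77 (permutation p = 0.0128), and Prf1 had r = 0.26 (permutation p = 0.454) and rho = 0.49 (permutation p = 0.155). Without mice 12 and 16, the 2 libraries farthest from the median of the marker sum, r was 0.73 (exact permutation p = 0.0249, adjusted p = 0.0994), so that the adjusted call rests on those 2 libraries. Prf1 had r = 0.24 with the NK cell markers (permutation p = 0.499, rho = 0.35) and r = -0.23 without mice 12 and 16. Without the library of mouse 13, Prf1 had r = 0.46 and rho = 0.63 with them (exact permutation p = 0.195 and 0.0760).

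With the summed T cell markers, Prf1 had r = 0.61 (permutation p = 0.0650, adjusted p = 0.130) and rho = 0.84 (permutation p = 0.00382, adjusted p = 0.00764), and without the 2 libraries farthest in that sum r = 0.61 and rho = 0.81 (exact permutation adjusted p = 0.228 and 0.0735). As deviations from the treatment group means, r was 0.50 and rho 0.47 (permutation adjusted p = 0.197 and 0.355), so that the call of rho was lost once treatment was taken out. Cd247 and Lat, which NK cells also use, held 67.5% or more of this sum in every Ly6C lo library. Gzma had r = -0.49 with them (permutation p = 0.357), and r = 0.62 without the library of mouse 13 (exact permutation p = 0.0482, adjusted p = 0.0742), whose T cell marker sum was 4.17. The relation of Gzma to T cell markers therefore turned on that 1 library. All values of a library share its size factor.

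**Figure D3:**
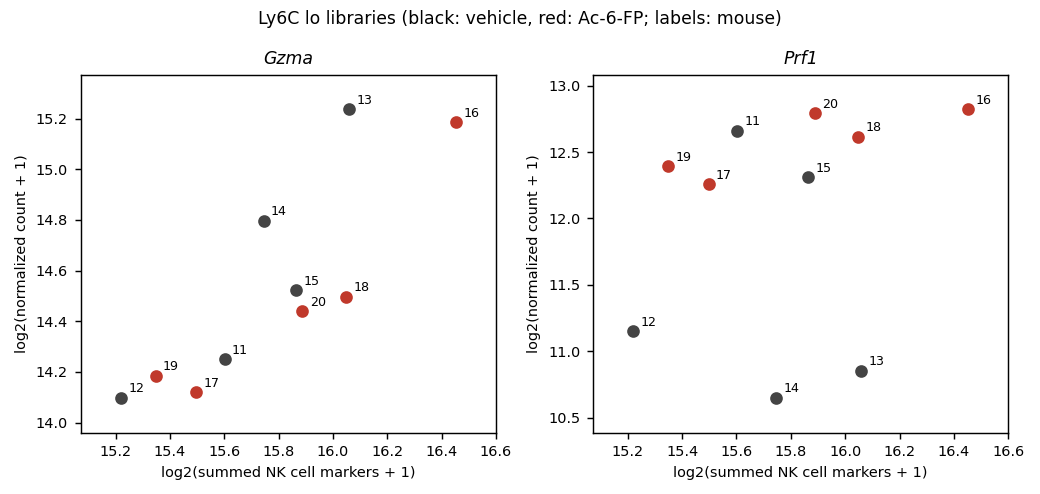
Log2(normalized count + 1) of Gzma (left) and Prf1 (right) against the log2 of the summed NK cell markers + 1 in the 10 Ly6C lo libraries, black for vehicle and red for Ac-6-FP, labelled by mouse. Gzma climbs with the markers (r = 0.84), whereas Prf1 is low in mice 12, 13 and 14 at 3 different marker levels (r = 0.24).

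Whether Ac-6-FP changed the killing effectors was asked within the Ly6C lo subset, 5 mice against 5, and 0 of the 8 genes passed the test. Over all genes, 9 of 17248 (0.0522%) were called at an adjusted p under 0.05 by limma, all higher with Ac-6-FP. That count ran from 0 (without mouse 12, 14, 19 or 20) to 103 (without mouse 11) when 1 mouse was left out, and was 0 by edgeR and 113 by DESeq2, 13 of them lower. At an unadjusted p under 0.05, 2 of the 8 genes (Prf1 and Ifng) were listed, against 9.31% of all genes. The median log2 difference of the 8 was 0.64 and that of all genes 0.91, but without the library of mouse 13 they were 0.73 and 0.35, so that their order turned on that library. In no gene of the 8 did all Ac-6-FP libraries lie above all vehicle libraries, a pattern that 1.29% of genes had.

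Of the 8 genes, Ifng and Fasl had the largest log2 differences by limma and by edgeR, but their size depends on the pseudocount and on the test. The mean of Ifng was 1096 ± 346 (SD, n = 5) normalized counts with Ac-6-FP and 308 ± 373 with vehicle, a ratio of 3.55, and 3 of 5 Ac-6-FP libraries were above every vehicle library. The log2 difference was 4.79 with a 95% interval of 0.24 to 9.34 (adjusted p = 0.530 by limma), but 6.12 with a pseudocount of 0.1 and 1.79 by edgeR on recovered reads. The two-sided exact permutation test gave p = 0.0238, before any adjustment for the 22 tests of this kind made, and p = 0.0476 without mouse 13. Without that library the log2 difference was 3.47.

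The mean of Fasl was 1780.0 ± 1148 with Ac-6-FP and 451 ± 475 with vehicle, with a log2 difference of 3.51 (interval -0.41 to 7.42, limma adjusted p = 0.555, exact permutation p = 0.0556), and of 1.93 by edgeR on recovered reads. By limma it was 1.76 without the library of mouse 13, in which Fasl was at 0 (exact permutation p = 0.111). Prf1 was at 6178 ± 1032 with Ac-6-FP and 3459.8 ± 2191 with vehicle, a log2 difference of 1.05 (interval 0.16 to 1.94, limma adjusted p = 0.528, exact permutation p = 0.0556). Leaving out the library of mouse 13 made the difference of Prf1 0.88 (exact permutation p = 0.111). For both genes, the vehicle libraries of mice 11 and 15 overlapped with the Ac-6-FP libraries.

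Gzmb was at 2249 ± 804 and 1499 ± 608, a log2 difference of 0.60 (interval -0.14 to 1.33, limma adjusted p = 0.564). Gzma was at 23806 ± 7852 and 25521 ± 8433, with a log2 difference of -0.10 (interval -0.68 to 0.49) that became 0.07 without the library of mouse 13. Nkg7 differed by 0.16 (interval -0.31 to 0.64), Ctsw by 0.69 (interval -1.17 to 2.55, but -0.042 by edgeR) and Srgn by 0.01 (interval -0.24 to 0.27, but -0.032 with TMM factors). For Srgn the interval leaves room only for small differences, while for Ctsw, Fasl and Ifng it spans several log2 units.

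**Figure D4:**
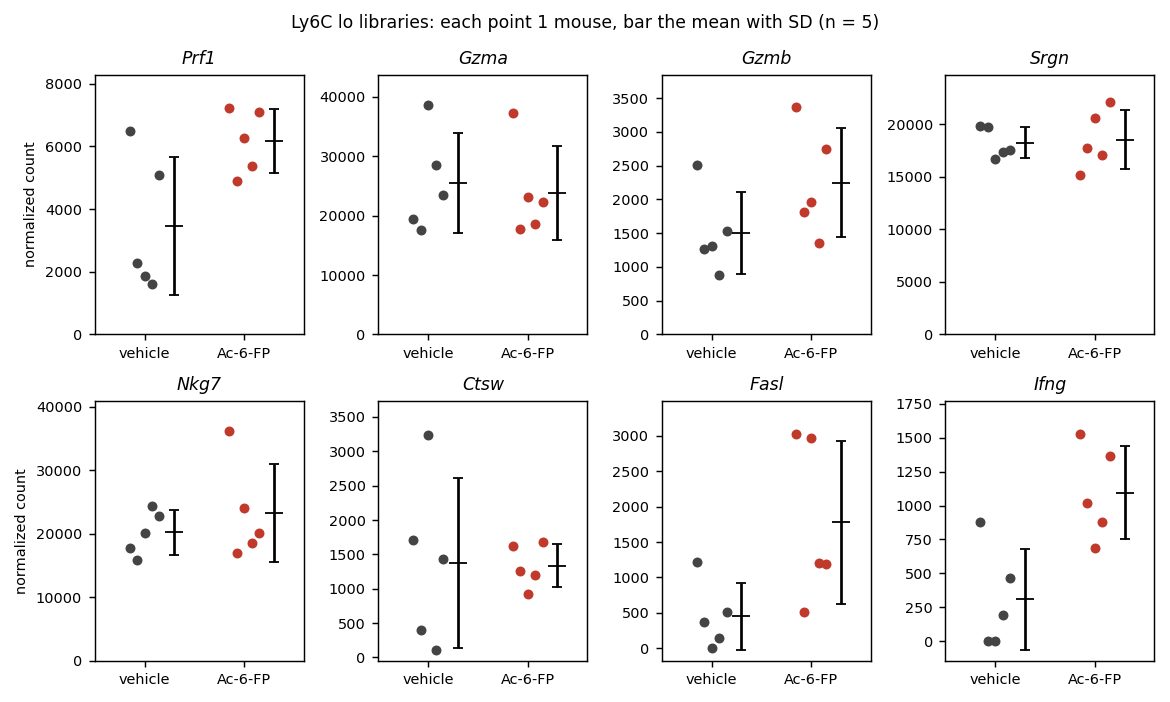
Normalized counts of the 8 killing effector transcripts in Ly6C lo libraries of vehicle and Ac-6-FP mice, on linear axes. Each point is 1 mouse, and the bar gives the mean with SD (n = 5). The groups overlap in every panel, and the 2 lowest values of Ifng, both 0, are vehicle mice.

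The number of genes detected moved with these differences. It was 15723, 10379, 5343, 9788 and 13527 in the Ly6C lo vehicle libraries of mice 11 to 15 and 14084, 13481, 11156, 15631 and 15766 in the Ac-6-FP libraries of mice 16 to 20. Prf1, Fasl and Ifng were lowest in mice 12, 13 and 14, the 3 libraries with the fewest genes, while Gzma in mice 13 and 14 was above that of mice 11 and 15. With a covariate for how many genes a library detected, the log2 difference was 0.55 for Prf1, 1.27 for Fasl and 2.28 for Ifng (limma adjusted p = 0.949, 0.988 and 0.963). The summed macrophage and monocyte markers moved in the same direction, from 22212 (mouse 13) to 57289 with vehicle and from 46682 to 78835 with Ac-6-FP. Their largest rises in mean were in Nr4a1 (3499 with vehicle and 15144 with Ac-6-FP) and Csf1r (5257 and 14585). Of the 10 markers in that sum, Cd68 alone was lower with Ac-6-FP (14549 and 13431). The T cell marker sums and Cd3d given above were higher with Ac-6-FP too. The summed B cell markers also did, from 0 to 778 with vehicle and from 766 to 1131 with Ac-6-FP. The summed mast cell and basophil markers moved the other way, from 3623 to 16473 (mouse 13) with vehicle and from 2064 to 5005 with Ac-6-FP. Medians were 5485 and 3077, and by limma 2 of the 6 tested markers were higher with Ac-6-FP. Fcer1a of the same list, a chain of the IgE receptor, was at 533 to 945 in vehicle and at 270.2 to 449.9 in Ac-6-FP libraries. Its log2 difference of -1.13 did not pass the test (limma adjusted p = 0.436). Of 66 tested markers of 9 cell types, Cd3d alone lay above all vehicle libraries in all Ac-6-FP libraries and Fcer1a alone below, patterns that 1.29% and 0.215% of all genes had. The part of these in the differences was not tested.

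**Figure D5:**
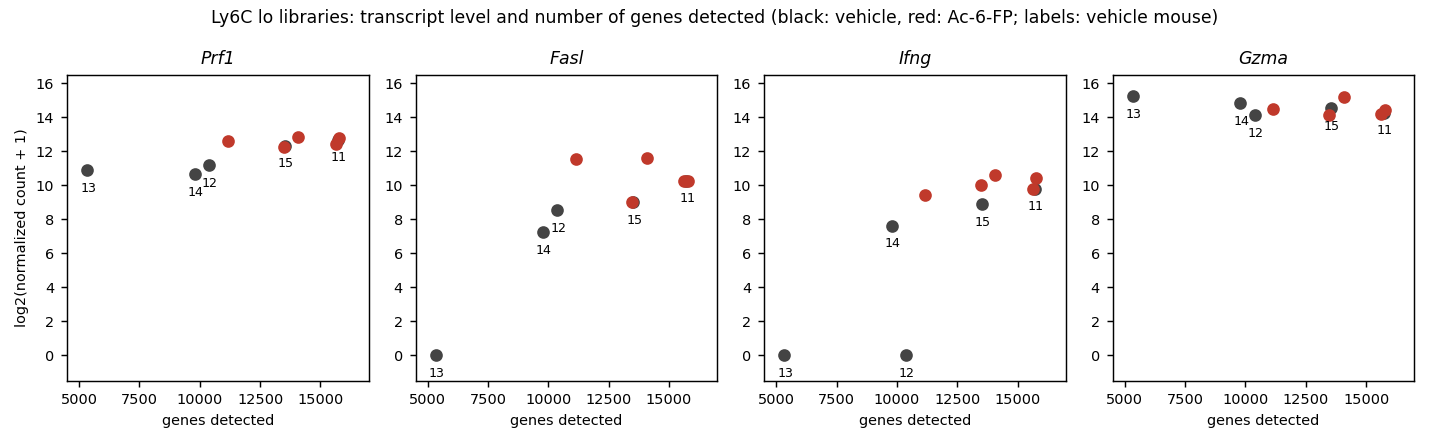
Log2(normalized count + 1) of Prf1, Fasl, Ifng and Gzma against the number of genes detected in the 10 Ly6C lo libraries, black for vehicle (labelled by mouse) and red for Ac-6-FP. The libraries of mice 12, 13 and 14 have the fewest genes and low Prf1, Fasl and Ifng, while Gzma is high in mice 13 and 14 and lowest in mouse 12.

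The NK cell marker sum itself differed little between treatments, by 0.15 on the log2 scale (exact permutation p = 0.540). With each gene divided by the NK cell markers of its library (Ccl5 left out, a scale chosen after seeing the data), the log2 difference was 4.66 for Ifng (exact permutation p = 0.0159), 3.38 for Fasl (exact permutation p = 0.0317), 0.93 for Prf1 (exact permutation p = 0.0873), 0.47 for Gzmb, -0.22 for Gzma and 0.04 for Nkg7. These p-values are not adjusted.

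In the lists, 0 of 15 NK cell markers, 0 of 4 granzyme inhibitors, 0 of 12 granule genes, 0 of 7 death receptor genes and 0 of 6 interferon gamma signalling genes were called for Ac-6-FP in Ly6C lo by limma, by limma without mouse 13 or by edgeR. At an unadjusted p under 0.05 by limma the counts were 1 of 15, 0 of 4, 4 of 12, 0 of 7 and 2 of 6, where 9.31% of all genes had such a p and 0.0522% were called. Il2rb, the receptor chain through which interleukins 2 and 15 sustain NK cells, had a mean of 759 with Ac-6-FP and 247 with vehicle (limma adjusted p = 0.532).

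In the Ly6C hi subset, 0.0754% of all genes passed the test for Ac-6-FP and 8.73% had an unadjusted p under 0.05 by limma. Prf1 and Fasl were at 0 in all 10 libraries, which leaves nothing to test, and Ctsw and Ifng were at 0 in 9 of 10, so that they could not be called. Of Gzma, Gzmb, Srgn and Nkg7, none was called by limma or edgeR or had an unadjusted p under 0.05 by limma. Nkg7 was at 163 ± 162 with Ac-6-FP and 98.2 ± 175 with vehicle. Its log2 difference was 3.07 by limma (interval -0.79 to 6.94, adjusted p = 0.651) and 0.61 by edgeR on recovered reads, with 2 vehicle libraries at 0. Srgn was at 5477 ± 1125 and 6409 ± 874 (log2 difference -0.24, interval -0.60 to 0.12). Whether the subsets differed in their response was asked with the within-mouse difference, Ly6C lo minus Ly6C hi, between treatments. Again 0 of the 8 genes passed, as did 0 of all 17248 genes by limma (840 at an unadjusted p under 0.05, which is 4.87%) and 0 by edgeR (373). The difference between the subsets was 3.99 for Ifng (interval -0.79 to 8.76, but 0.46 by edgeR) and -2.91 for Nkg7 (interval -6.14 to 0.32). For Prf1 and Fasl, at 0 throughout Ly6C hi, it equals the difference in Ly6C lo and says nothing of a change in Ly6C hi.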

How the data were processed

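RNA of sorted liver MoMac was measured in 20 libraries, 1 per mouse and subset, and mice are separate animals. According to the study's methods and the submitters' processing notes, reads of 75 bases were aligned with STAR 2.4.0 to mm10 (GRCm38), those on constitutive regions of FAST DB genes were counted, and DESeq2 normalized the counts. The deposited values are signal values that the authors made by dividing counts by a size factor per library. Dividing by each library's step gave whole reads for 99.9983% of values above 0 within 0.006 in 19 libraries. The Ly6C hi library of mouse 15, with a step of 0.989 and 100% of such values whole, was nevertheless left out of tests on reads. Within-mouse tests on reads or with TMM factors therefore left out both libraries of mouse 15. No libraries were identical.

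The 8 genes, the lists and the tests were chosen with earlier results of these data known. Log2(normalized count + 1) of the 17248 genes with a mean of at least 10 in 1 of 4 groups was fitted with limma 3.58.1 in R 4.3.3 (Benjamini-Hochberg adjusted p under 0.05), 5 mice against 5 within a subset or on within-mouse differences. Intervals are limma's, at 95%. Both libraries of a number come from 1 mouse, although residuals of the same mouse had a median correlation of only 0.0338 (0.00334 to 0.250). Single genes were tested with two-sided exact permutation tests, whose smallest p is 0.00794, and correlations with 100000 permutations (exact under 10 libraries), in Python 3.11.15 with scipy 1.17.1, numpy 2.4.6 and pandas 2.3.3. Scripts were tested on simulated data. Genes named are the 8, up to 5 per list with the highest mean, and the 5 most like Gzma and Prf1, and others were named after their values were seen. Results for 2 listed genes are not reported here. Alternatives included other pseudocounts and filters, TMM and quantile normalization, edgeR 4.0.16 and DESeq2 1.42.0 on recovered reads, the number of genes detected as covariate, and leaving out each mouse. The NK cell marker scale, the marker sum without Ccl5, edgeR without the library of mouse 13, and ratios of means without 1 mouse were added after seeing the data. Counting limits cover counting error only, since no molecular identifiers were used, and whether strand was used in counting is not given in the sources used here.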

Additional observations from a re-analysis of the deposited data

Results flagged for a closer look

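Of 26 groups of 5 libraries examined for the 8 genes, 8 had 1 library far from the others. In 5 of them the other libraries were all at 0, so that any detected value stands apart. In Ly6C hi vehicle libraries, the values that stood apart were Gzma in mouse 11 (32.75), Ctsw in the same library (23.9), Gzmb in mouse 12 (2.14) and Nkg7 in mouse 14 (408.92). In Ly6C hi Ac-6-FP libraries they were Gzmb (142.55) and Nkg7 (449.35), both in mouse 18, and Ifng in mouse 20 (14.9). The Ly6C hi library of mouse 18 was also the highest of its subset for Gzma (223), and its summed NK cell markers were 581, while those of mouse 14 were 849, the highest of the Ly6C hi libraries. In Ly6C lo, Gzma in mouse 16 (37250.3) stood above the other Ac-6-FP libraries, and the summed NK cell markers of that library (89659) were the highest of the 10. The part of NK cells in these values was not tested.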

How the results depend on the processing

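No alternative brought any of the 8 genes that could be tested past the adjusted threshold for Ac-6-FP, in either subset or in the difference between subsets. The count of all genes called for Ac-6-FP in Ly6C lo, 9, became 2 with a pseudocount of 10, no filter, a filter at 100, the covariate or without the library of mouse 13, 0 with quantile normalization or edgeR (with or without that library), 113 with DESeq2 (13 of them lower), and 0 (without mouse 12, 14, 19 or 20) to 103 (without mouse 11) on leaving out 1 mouse. In Ly6C hi, 13 became 5 with no filter, 4 with a filter at 100, 0 with TMM, quantile normalization, edgeR or the covariate, 193 with DESeq2, and 0 to 133 on leaving out 1 mouse (12 and 11). For the difference between subsets, 0 became 2 with a filter at 100, 3 with TMM, 1 with quantile normalization, 186 with DESeq2, 3 with no replicate block, and 0 to 4 without 1 mouse. For Ly6C lo against Ly6C hi, 896 became 467 with edgeR, 1509 with DESeq2, 1702 with the covariate (723 higher and 979 lower, against 593 and 303), and 642 to 1162 without 1 mouse (16 and 13). With no replicate block it was 896 (599 higher and 297 lower), and for Ac-6-FP the block changed no call among the 8 genes.

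Directions of small log2 differences turned. Gzma in Ly6C lo became 0.13 with the covariate, 0.069 without the library of mouse 13 and 0.062 with edgeR without it, over -0.27 to 0.069 without 1 mouse. Srgn in Ly6C lo became -0.032 (TMM), -0.072 (quantile normalization), -0.020 (edgeR), -0.027 (covariate), -0.017 (without the library of mouse 13), -0.061 (edgeR without it) and -0.11 (divided by NK cell markers), over -0.054 to 0.082 without 1 mouse. Ctsw in Ly6C lo became -0.042 with edgeR and -0.016 with DESeq2, over -0.034 to 1.19 without 1 mouse, and Nkg7 ran from -0.013 to 0.26. Gzmb in Ly6C hi became -0.14 and Ifng -0.13 with quantile normalization, and Gzmb in Ly6C hi ran from -0.33 to 1.46 without 1 mouse. Gzmb in the difference between subsets became 0.65 (quantile normalization), 0.18 (edgeR) and 0.83 (DESeq2), over -1.03 to 0.96 without 1 mouse. The correlation of Gzma with NK cell markers was 0.73, of Gzma with T cell markers 0.54, and of Prf1 with NK cell markers -0.23, each without the 2 farthest libraries, and Gzma with T cell markers was 0.62 without that of mouse 13. The cause was not tested. With 5 mice a group and transcripts at or near 0 in Ly6C hi, log2 differences depend on the pseudocount: that of Prf1 between subsets was 15.37 with 0.1 and 8.73 with 10.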

Other observations

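Markers of further cell types also differed between the subsets that hold and lack the killing effectors. Of 8 neutrophil markers, 2 rose and 1 fell in Ly6C lo. Retnlg, a resistin-like secreted protein, had 40889.5 ± 31434 (SD, n = 10) normalized counts in Ly6C lo and 114 ± 150 in Ly6C hi (limma adjusted p = 2.68e-05). Cxcr2, a chemokine receptor named after its values were seen, rose as well (371 ± 425 against 4.84 ± 15.3, limma adjusted p = 0.00601), and Mmp8, a collagenase, was lower in Ly6C lo (506 ± 371 against 7356 ± 1945, limma adjusted p = 0.00317). Ly6g, the antigen used to remove neutrophils, was at 37.5 ± 65.5 in Ly6C lo and 2.20 ± 4.98 in Ly6C hi.

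Of 4 tested B cell markers Cd79a alone rose (138 ± 67.9 against 8.84 ± 18.6, limma adjusted p = 0.00512), and of 4 hepatocyte markers Apoa1 alone (667 ± 269.5 against 171 ± 87.0, limma adjusted p = 0.0197), neither of which edgeR called. No plasmacytoid dendritic cell marker of 6 was called, with 2 at an unadjusted p under 0.05 by limma (16.7% of all genes) and 0 called by edgeR. Of 10 tested macrophage and monocyte markers, 0 were called higher in Ly6C lo by limma or edgeR. Ly6c2 and Ccr2 were lower in Ly6C lo, with and without mouse 13 and by edgeR. Ccr2, the receptor that draws monocytes into the liver, was at 6777 ± 2612 in Ly6C lo and 17035 ± 3621 in Ly6C hi.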
